A study of Mus musculus with 38 samples.

Results

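The Kcnq1ot1 imprinted domain lies on distal mouse chromosome 7 and was followed here through 8 of 32093 protein-coding and long noncoding genes, Kcnq1ot1, Kcnq1, Cdkn1c, Phlda2, Slc22a18, Tssc4, Cd81 and Ascl2. The genes were chosen by their position in the cluster and from earlier values of these same lists, in which H3K4me1 at Kcnq1 was higher in IκBα-KO than in IκBα-WT mouse embryonic stem cells (mESCs). Differences between the genotypes at these genes are therefore given as a description. No p-value is given for them, and where regions past a test's threshold are counted, nothing is drawn from the count. ChIP-seq of 5 histone modifications had been carried out in ES-E14TG2a mESCs cultured in serum and leukemia inhibitory factor on gelatin and taken at 0 h, with 3 IκBα-WT (WT, IκBα+/+) and 3 IκBα-KO (KO, IκBα-/-) libraries for each modification. KO cells carried CRISPR-Cas9 edits in the first exon of Nfkbia, the gene of IκBα, which inhibits NF-κB. WT cells were clones that had received a scrambled guide RNA, and the 3 libraries of a genotype came from separate clones of 1 cell line. In all, 30 of the 38 samples were ChIP libraries and the other 8 were inputs.

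Genomic imprinting restricts the activity of a gene to the copy inherited from either the mother or the father. Kcnq1ot1 is a long noncoding RNA made from the paternal copy, antisense to Kcnq1, and its start lies in a control region that carries DNA methylation on the maternal copy. On the paternal copy Kcnq1ot1 is known to keep neighbouring genes silent, together with Polycomb complexes, which set H3K27me3, and with H3K9 methylation, most widely in the placenta. H3K4me3 is found at active promoters, H3K27ac at active promoters and enhancers, H3K4me1 at enhancers and around promoters, and H3K9me3 in heterochromatin and on the methylated copy of many imprinted control regions. ChIP reads as counted here do not separate the parental copies, so a level is the sum over both.

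In GRCm38 with GENCODE M21 genes, Kcnq1ot1 (ENSMUSG00000101609) is a single exon at chr7:143203458-143296549 on the minus strand, 93092 bp long. Its start lies in the intron of Kcnq1 (ENSMUSG00000009545, chr7:143106362-143427042, plus strand) between exons 11 and 12 of the 16 exons of transcript Kcnq1-201, 35.2 kb from exon 11 and 62.2 kb from exon 12. The starts of the other genes lie at 164.5 kb (Cdkn1c), 177.2 kb (Slc22a18), 190.2 kb (Kcnq1), 206.6 kb (Phlda2), 227.3 kb (Tssc4), 243.8 kb (Cd81) and 327.3 kb (Ascl2) from that of Kcnq1ot1. Positions below are distances from the Kcnq1ot1 start in the direction of its transcription. Cdkn1c, Slc22a18 and Phlda2 are upstream, at negative distances, and the starts of Kcnq1, Tssc4, Cd81 and Ascl2 are downstream.

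The sequence at the start is shown because H3K9me3 and H3K4me3 coverage within 5 kb of it did not overlap between the genotypes, while that of H3K27ac, H3K4me1 and H3K27me3 did. The RefSeq promoter of Kcnq1ot1 (GRCm38.p6, chr7:143296498-143296797, minus strand, 300 bases) is printed 5′ to 3′, with matches to CCAAT, the core bound by the factor NF-Y, in capitals. The table of RefSeq promoters held 6 of the 8 genes.
Kcnq1ot1 promoter: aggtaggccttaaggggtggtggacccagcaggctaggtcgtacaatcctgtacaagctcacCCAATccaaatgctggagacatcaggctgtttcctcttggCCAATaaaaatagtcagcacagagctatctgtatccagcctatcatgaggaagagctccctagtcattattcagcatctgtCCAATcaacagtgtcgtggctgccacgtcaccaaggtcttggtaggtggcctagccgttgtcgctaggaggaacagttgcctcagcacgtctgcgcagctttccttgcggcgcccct
It held 3 matches to CCAAT, all on the strand of Kcnq1ot1, where 3.37% of the 32851 promoters of this length held at least 3 on either strand. It held no match to TGCCGC, the core of the motif of ZFP57, a zinc finger protein that binds methylated imprinted control regions, and 11.6% of the promoters held at least 1 match on either strand. With 9 CpG it had more than 54.2% of the promoters.

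Just inside the transcript the reference was much richer in CpG. In steps of 300 bases, the 5 steps from 0 to 1500 bases downstream held 16 to 23 CpG each, while the other 22 steps between 3000 bases upstream and 5100 bases downstream held 0 to 6. Of 1067 such steps along Kcnq1, 8 (0.75%) held at least 16 CpG, and these 8 include the 5 steps themselves. The step from 600 to 900 bases downstream (chr7:143295650-143295949, minus strand, GRCm38) is printed because it held most matches to TGCCGC, which stand in capitals.
Kcnq1ot1 at 600 to 900 bases: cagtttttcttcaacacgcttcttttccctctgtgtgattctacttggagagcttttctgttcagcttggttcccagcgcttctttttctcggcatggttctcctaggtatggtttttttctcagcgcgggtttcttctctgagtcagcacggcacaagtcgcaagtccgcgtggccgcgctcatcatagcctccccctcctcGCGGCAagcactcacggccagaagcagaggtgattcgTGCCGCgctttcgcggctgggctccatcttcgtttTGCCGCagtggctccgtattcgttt
It held 3 matches, 2 as TGCCGC and 1 as GCGGCA, the same motif on the other strand, and 23 CpG. It was the only 1 of the 1067 steps with 3 matches, 24 steps (2.25%) held at least 1, and 0.234% of RefSeq promoters held 3 or more. A match is a description of the reference and says nothing of whether the factor is bound.

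**Figure D1:**
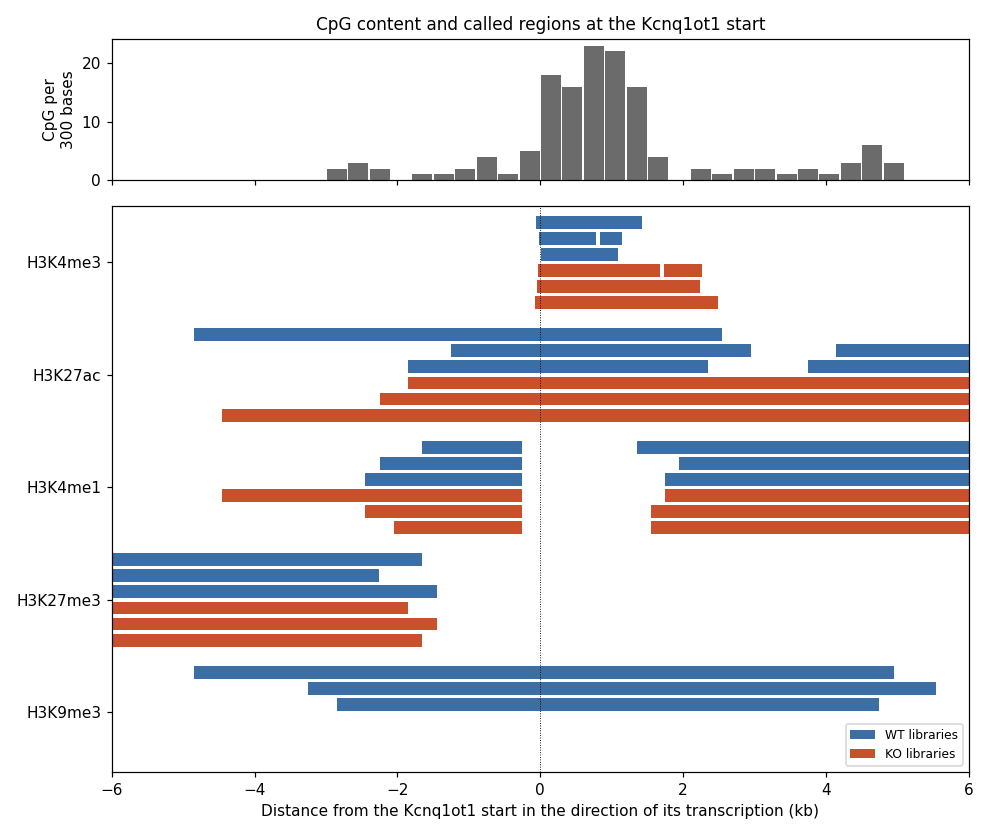
CpG per 300 bases of the reference (top, bars) and called regions of each library (bottom, 1 row per library, WT in blue and KO in orange) against the distance in kb from the Kcnq1ot1 start. H3K9me3 calls cover the CpG-rich first 1500 bases in 3 of 3 WT and 0 of 3 KO libraries, and H3K4me3 calls reach 1.08 to 1.43 kb in WT and 2.24 to 2.485 kb in KO.

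At the Kcnq1ot1 start, the H3K9me3 call of the WT cells was absent from the KO lists. H3K4me3 calls covered more sequence there in KO, and the H3K27ac call over the start was longer. The WT libraries had a single H3K9me3 call of 9800, 8800 and 7600 bp over the start, reaching from -4.85 to 4.95 kb, from -3.25 to 5.55 kb and from -2.85 to 4.75 kb. These calls held 613, 548 and 468 ChIP reads, or 62.6, 62.3 and 61.6 reads per kb, against 19.7, 20.1 and 19.3 input reads per kb. No KO library had an H3K9me3 call within 5 kb of the start. The lists hold only regions past the authors' false discovery rate of 0.05, so the KO level there is below their calling limit and is otherwise unknown. Over all genes, 2.48% of the 6422 promoter windows (5000 bp upstream to 100 bp downstream) with an H3K9me3 call in any library had the same pattern of 3 of 3 WT and 0 of 3 KO, and 36 windows had the opposite pattern.

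H3K4me3 marked the CpG-rich stretch in all 6 libraries. Its calls in the Kcnq1ot1 window (the gene with 5 kb on either side) covered 1489, 1088 and 1079 bp in WT and 2241, 2284 and 2555 bp in KO, or 1219 ± 234 bp and 2360 ± 170 bp (SD, n = 3 and 3), so that the groups did not overlap. The widening was on the downstream side, where the calls ended at 1.43, 1.14 and 1.08 kb in WT and at 2.27, 2.24 and 2.485 kb in KO. The highest fold enrichment over input was 7.43, 8.40 and 6.46 in WT and 7.62, 16.3 and 12.7 in KO, and here the groups overlapped. All summits of the strongest calls lay within the CpG-rich 1500 bases, at 0.147, 0.145 and 0.914 kb in WT and at 1.10, 0.346 and 0.400 kb in KO.

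H3K27ac, the mark of active promoters and enhancers, also covered the start in every library. The labels give the same antibody for the H3K27ac and the H3K4me1 libraries, while the methods name another for H3K27ac, so each H3K27ac value is that of a library labelled so. The call over it was 7400, 4200 and 4200 bp long in WT and 14600, 15400 and 18400 bp in KO, and in KO it ran on without a break to 12.75, 13.15 and 13.95 kb into Kcnq1ot1. In the 5 kb step from 5 to 10 kb, H3K27ac reads in calls were 27.6, 40.7 and 29.1 per kb in WT and 74.6, 70.4 and 58.6 per kb in KO. The KO values are averages over the whole call, start included, while in WT the call over the start was a separate one. Where inside the KO calls the reads lie is not known. H3K27ac calls were longer in KO over the whole lists too. Their median length was 4200, 4200 and 4800 bp in WT and 5000, 5200 and 5600 bp in KO. The part of this in the longer call over the start was not tested. A further block from 20 to 35 kb was called in 3 of 3 KO libraries, at 31.6, 40.2 and 37.2 reads per kb in the step from 20 to 25 kb and 43.3, 41.0 and 30.2 in the step from 25 to 30 kb. Of the WT libraries, replicate 3 alone had reads in calls there, at 24.1 and 7.50 per kb. WT replicates 2 and 3 had instead a small block between 40 and 45 kb, where no KO library had a call.

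Over the whole Kcnq1ot1 window, H3K27ac calls covered 11800, 13200 and 16600 bp in WT and 27800, 24600 and 31800 bp in KO, a mean of 13867 ± 2469 bp against 28067 ± 3607 bp (SD, n = 3 and 3). This was 2.02 times as much sequence. The reads per kb of called sequence differed less, with 49.8 ± 2.14 in WT and 57.7 ± 6.82 in KO.

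H3K4me1 was the modification with the broadest difference along Kcnq1ot1. No library had an H3K4me1 call over the first 1.35 kb, most of which lay under the H3K4me3 calls. In KO the H3K4me3 calls reached on over the first part of the H3K4me1 calls. Downstream of the first 1.35 kb, each KO library had a single H3K4me1 call, of 51200, 50000 and 50200 bp. These ran from 1.55 or 1.75 kb to 52.95, 51.55 and 51.75 kb. The WT libraries had several calls that ended sooner, and their read densities were lower. Over the merged region from 1.3 to 52.9 kb, reads per kb of called sequence were 62.1, 61.0 and 58.5 in WT and 94.4, 96.0 and 96.0 in KO. The log2 KO/WT was 0.70 ± 0.03 (SE, n = 3 and 3). Because an epic2 region carries a single read count, the density within the 50 kb call is flat by construction, and where inside it the reads lie is not known.

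In the Kcnq1ot1 window, H3K4me1 calls covered 43.1%, 41.9% and 45.2% of the sequence in WT and 53.7%, 50.6% and 50.4% in KO. The densities were 62.5, 60.9 and 58.2 reads per kb of called sequence in WT and 92.5, 96.1 and 96.8 in KO. Relative to the reads per kb over all calls of each library, from here on the scaled density, these were 0.821 ± 0.0267 in WT and 1.30 ± 0.0368 in KO. The WT level thus lay below the average H3K4me1 call of its libraries and the KO level above it. Upstream of the start, a small H3K4me1 call (chr7:143296801-143301000 when merged) had 75.7, 58.0 and 51.4 reads per kb in WT and 68.8, 97.3 and 118 in KO. There WT replicate 1 lay above KO replicate 1, and the log2 KO/WT was 0.65 ± 0.20.

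**Figure D2:**
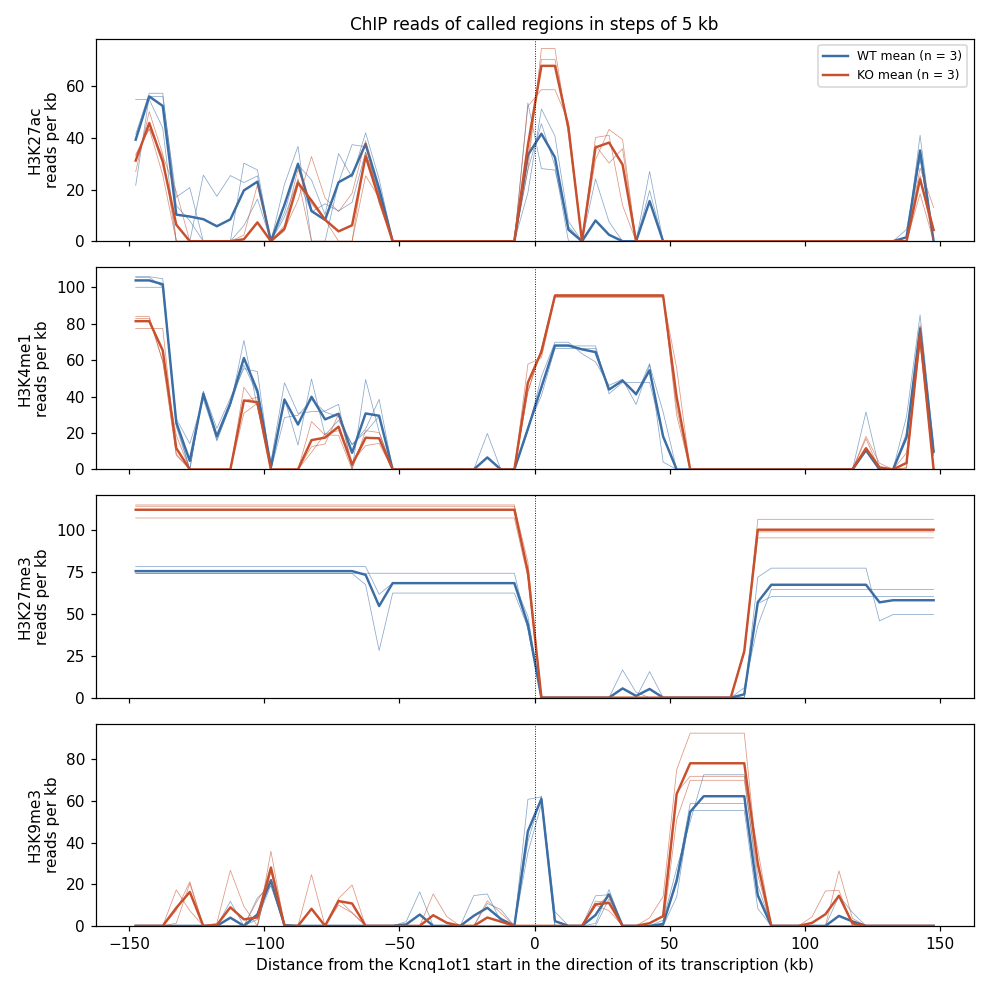
ChIP reads of called regions per kb in steps of 5 kb (y axis) against the distance in kb from the Kcnq1ot1 start, for 4 modifications, with thick lines for the mean of 3 libraries and thin lines for each library. H3K4me1 in KO stays near 96 reads per kb from 5 to 50 kb, and H3K27me3 is higher in KO on both outer sides. The H3K9me3 peak of WT at the start is missing in KO, while the KO mean of the block from 50 to 80 kb is the higher one. In these reads, not scaled to the library, 1 WT library lies within the KO range there.

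The far part of Kcnq1ot1 carried the marks of silent chromatin. H3K9me3 was called from 49.5 to 82.5 kb when merged over the libraries (chr7:143214001-143247000), in 6 of 6 libraries. Its density was 65.4, 55.8 and 55.4 reads per kb of called sequence in WT and 92.5, 69.8 and 71.8 in KO, with a log2 KO/WT of 0.41 ± 0.05. The lowest KO library thus lay above the highest WT library, in the opposite direction to the H3K9me3 call at the start. In unscaled reads this did not hold at every position of the region. In its middle, from 60 to 75 kb, WT replicate 1 had 72.5 reads per kb, above KO replicates 2 and 3 at 69.8 and 71.8. Over all H3K9me3 calls, however, WT replicate 1 had 59.2 reads per kb and KO replicates 2 and 3 had 49.6 and 50.9. The unscaled values of these libraries are therefore not on the same footing. Over the Kcnq1ot1 window as a whole the covered sequence was 41000, 44000 and 38600 bp in WT and 36800, 33600 and 36800 bp in KO, while the scaled density was 1.06 ± 0.0198 in WT and 1.31 ± 0.0227 in KO. Over the gene body alone, without the flanks, the covered shares of 38.8%, 43.8% and 38.4% in WT and 39.5%, 36.1% and 39.5% in KO overlapped.

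H3K27me3, the Polycomb mark, left most of Kcnq1ot1 free. Its calls stopped 1.65, 2.25 and 1.45 kb before the start in WT and 1.85, 1.45 and 1.65 kb before it in KO, and began again between 78.5 and 80.3 kb. Between them no KO library had a call, while WT replicates 1 and 3 each had a short one, 3400 and 3000 bp long, with 29.1 and 26.0 reads per kb. On both sides of this gap the calls were long and their density was higher in KO. In the merged region from -208.9 to -1.5 kb (chr7:143298001-143505400), which spans the rest of Kcnq1 and Cdkn1c, Slc22a18 and Phlda2, it was 67.9, 71.1 and 72.5 reads per kb of called sequence in WT and 109, 114 and 105 in KO. In the region from 78.5 to 171.9 kb (chr7:143124601-143218000), which holds the end of Kcnq1ot1, it was 60.4, 63.6 and 63.6 in WT and 99.1, 104 and 95.5 in KO. The log2 KO/WT was 0.62 ± 0.06 and 0.66 ± 0.06 (SE, n = 3 and 3). Single calls ran through several genes here, up to 207200 bp in KO replicate 2, so the H3K27me3 densities of Kcnq1, Cdkn1c, Slc22a18 and Phlda2 given next rest in part on the same reads.

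**Figure D3:**
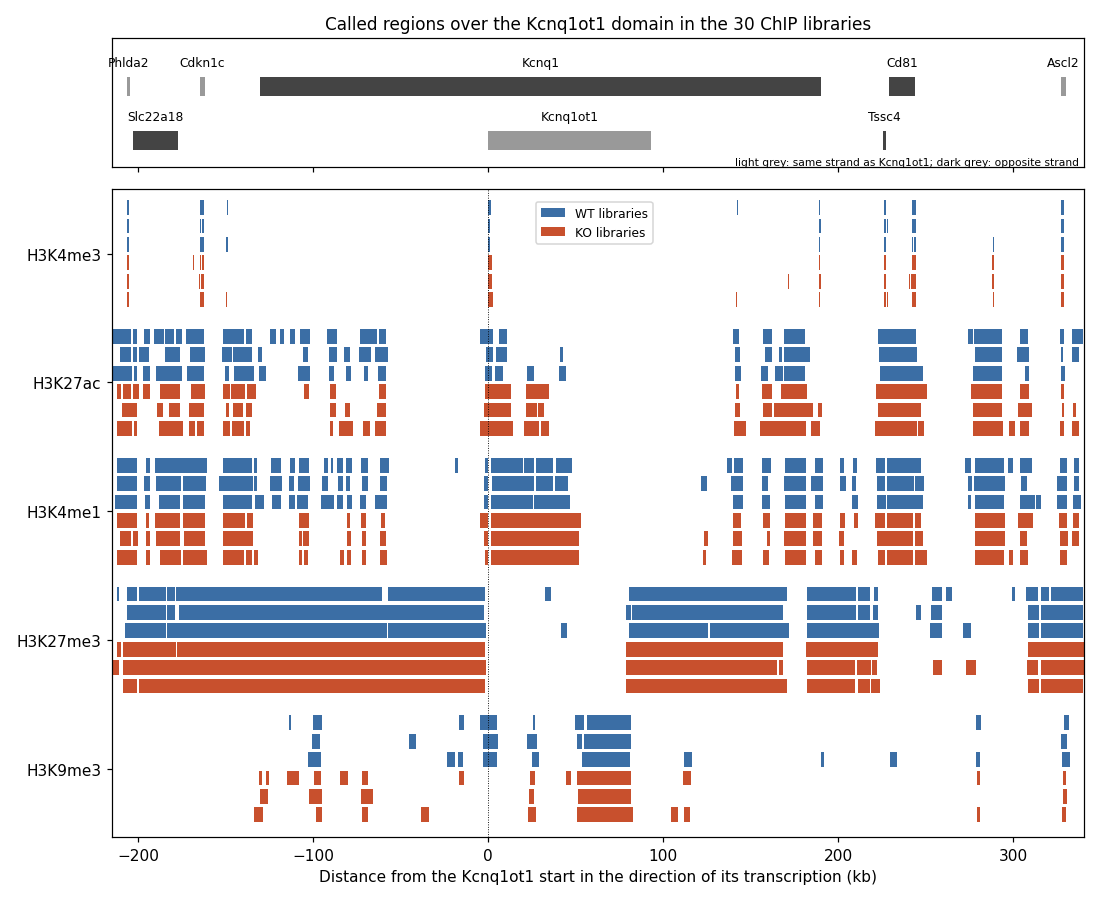
Called regions of the 30 ChIP libraries (1 row each, WT in blue and KO in orange) over the domain, against the distance in kb from the Kcnq1ot1 start, with the 8 genes above. The long H3K27me3 calls end near the start and begin again 78.5 to 80.3 kb beyond it in both genotypes, and the H3K4me1 calls from 1.3 to 52.9 kb are unbroken in the 3 KO libraries.

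Kcnq1, a voltage-gated potassium channel of heart, ear and gut, is so long that its window holds all of Kcnq1ot1, and its totals mix stretches that went opposite ways. H3K4me1 calls covered 34.1%, 33.3% and 35.2% of the Kcnq1 window in WT and 28.4%, 28.2% and 28.8% in KO, so that less sequence was called in KO, while the scaled density was higher, at 0.942 ± 0.0218 in WT and 1.22 ± 0.00724 in KO. The density was higher in KO within Kcnq1ot1, as described above, while in the stretch between the Kcnq1 start and the Kcnq1ot1 end it was 92.3 ± 6.47 reads per kb of called sequence in WT and 93.4 ± 4.39 in KO. Between the Kcnq1ot1 start and the Kcnq1 end, H3K4me1 calls covered 27.9%, 26.2% and 31.9% in WT and 12.7%, 11.5% and 12.0% in KO, with 63.9, 65.6 and 58.6 reads per kb of called sequence in WT and 68.1, 66.2 and 72.3 in KO, which did not overlap either. H3K27ac calls in that stretch covered 29.3%, 21.1% and 18.8% in WT and 9.24%, 10.5% and 18.6% in KO, with KO replicate 3 just under the lowest WT library. Between the Kcnq1 start and the Kcnq1ot1 end, the genotypes overlapped in H3K4me1, H3K27ac, H3K4me3 and H3K9me3 coverage.

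At its own promoter Kcnq1 had a narrow H3K4me3 call of 893, 932 and 1002 bp in WT and 802, 986 and 709 bp in KO, and these overlapped. H3K4me3 calls in the whole Kcnq1 window covered 3133, 2020 and 2081 bp in WT and 3390, 4224 and 3595 bp in KO, of which those at the Kcnq1ot1 start, given above, are part. H3K27me3 covered 71.1% to 72.7% of the Kcnq1 window in all 6 libraries, and its scaled density was 1.57, 1.83 and 1.79 in WT and 2.78, 2.78 and 2.67 in KO.

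Cdkn1c (ENSMUSG00000037664, chr7:143458339-143461050), an inhibitor of cyclin-dependent kinases that restrains growth, stood wholly within H3K27me3, which covered 100% of its window in all 6 libraries. The H3K27me3 density there was 74.2, 74.4 and 78.3 reads per kb in WT and 115, 114 and 107 in KO, or a mean of 75.6 ± 2.34 against 112 ± 4.30, 1.48 times as high, with no overlap. In each library this was the average of a single call much longer than the window, so the level at Cdkn1c itself is not known. The H3K4me3 enrichment of Cdkn1c went the other way. The highest fold over input was 9.17, 7.65 and 8.90 in WT and 4.48, 5.19 and 5.01 in KO, while the covered sequence overlapped, at 1598 to 2256 bp in WT and 1382 to 1800 bp in KO. No H3K9me3 was called at Cdkn1c in any library. The H3K27ac scaled density was 0.960, 0.907 and 0.953 in WT and 0.812, 0.896 and 0.891 in KO, which did not overlap but differed by a factor of only 0.922 between the means.

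The stretch just beyond the Kcnq1 end, between Kcnq1 and Cdkn1c, had a lower density of the enhancer marks in KO. Its H3K4me1 region (chr7:143431001-143450200) had 106, 100.1 and 106 reads per kb of called sequence in WT and 80.4, 77.5 and 81.6 in KO, a log2 KO/WT of -0.34 ± 0.04. The H3K27ac region beside it (chr7:143429001-143448800) had 54.3, 53.9 and 55.6 in WT and 40.3, 48.6 and 44.2 in KO, a log2 KO/WT of -0.31 ± 0.09. The H3K4me1 region over Cdkn1c and the start of Slc22a18 (chr7:143457001-143487000) had 96.1, 97.5 and 101 in WT and 81.0, 83.2 and 86.5 in KO, a log2 KO/WT of -0.20 ± 0.04. In each of these 3 regions all KO libraries lay below all WT libraries, opposite to H3K4me1 within Kcnq1ot1. The input in the H3K4me1 lists was also lower in KO at Cdkn1c and Slc22a18. Relative to all called sequence, its log2 KO/WT was -0.26 and -0.16 there, and its part in these regions was not tested.

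Slc22a18 (ENSMUSG00000000154, chr7:143473736-143499334), a transporter of organic cations, and Phlda2 (ENSMUSG00000010760, chr7:143501545-143503150), a pleckstrin homology protein known to limit placental growth, lie next to each other, and their windows share calls, among them the only H3K4me3 call of each. This call covered 1389, 1195 and 1361 bp in WT and 1019, 1340 and 1519 bp in KO, which overlapped. The H3K27me3 density over Slc22a18 was 55.0, 53.2 and 59.4 reads per kb of called sequence in WT and 77.2, 114 and 96.9 in KO. Over Phlda2 it was 48.7, 51.3 and 50.3 in WT and 63.0, 109 and 57.9 in KO, where the mean of KO rested largely on replicate 2. The call of 207200 bp in KO replicate 2 spanned the Slc22a18 window and reached into that of Phlda2. The long calls of KO replicates 1 and 3 ended before the Phlda2 window. H3K27me3 calls also reached further over Phlda2, covering 58.2%, 57.4% and 66.0% of its window in WT and 93.1%, 79.3% and 72.4% in KO. The scaled density of H3K27ac over Phlda2 was 1.05, 1.21 and 1.09 in WT and 0.834, 0.896 and 0.907 in KO, and that of H3K4me1 over Slc22a18 was 1.29, 1.20 and 1.26 in WT and 1.03, 1.07 and 1.11 in KO. All these pairs of groups except the H3K4me3 call were without overlap, though the separation in H3K27me3 coverage over Phlda2 was lost without the flanks.

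Tssc4 (ENSMUSG00000045752, chr7:143069249-143071093), whose protein takes part in spliceosome assembly, and Cd81 (ENSMUSG00000037706, chr7:143052739-143067934), a tetraspanin of the cell surface, had the pattern of active genes in both genotypes. H3K27ac covered 70.5% to 95.8% of the Tssc4 window and 83.1% to 100% of the Cd81 window. The H3K27ac density, which comes largely from the same calls, was 91.3 to 113 reads per kb over Tssc4 and 85.0 to 113 over Cd81, with a scaled density of 1.43 to 1.71, the highest among the 8 genes. H3K27me3 was called over Cd81 in 1 of 6 libraries, WT replicate 2, and it covered 14.3% to 26.1% of the Tssc4 window. H3K4me3 calls covered 1225, 1379 and 1261 bp of the Tssc4 window in WT and 1638, 1665 and 1910 bp in KO, and 3304, 3229 and 3135 bp of the Cd81 window in WT and 3500, 4516 and 4129 bp in KO. Both separations were lost without the flanks, and that at Tssc4 also with equal numbers of top-ranked calls from each library. The highest fold of H3K4me3 over input overlapped at both genes, at 12.4 to 19.6 in WT and 13.0 to 17.2 in KO.

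Ascl2 (ENSMUSG00000009248, chr7:142966829-142969264), a helix-loop-helix factor needed by the trophoblast, is the farthest of the genes. Like Cdkn1c it lay wholly within H3K27me3 calls in all 6 libraries, but the density there overlapped, with 74.6, 66.8 and 66.5 reads per kb in WT and 61.9, 82.0 and 74.4 in KO. H3K4me3 covered 1928, 1923 and 1947 bp in WT and 1474 to 1789 bp in KO, and its highest fold over input was 10.2, 12.3 and 8.64 in WT and 6.49, 7.96 and 6.78 in KO. H3K9me3 calls covered 3000, 3400 and 4600 bp in WT and 1800, 2400 and 2200 bp in KO. The separation in H3K9me3 coverage was lost without the flanks and with flanks of 10 kb, and that in H3K4me3 coverage without the flanks. Ascl2 and Cdkn1c were thus the members whose H3K4me3 enrichment was lower in KO without overlap.

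**Figure D4:**
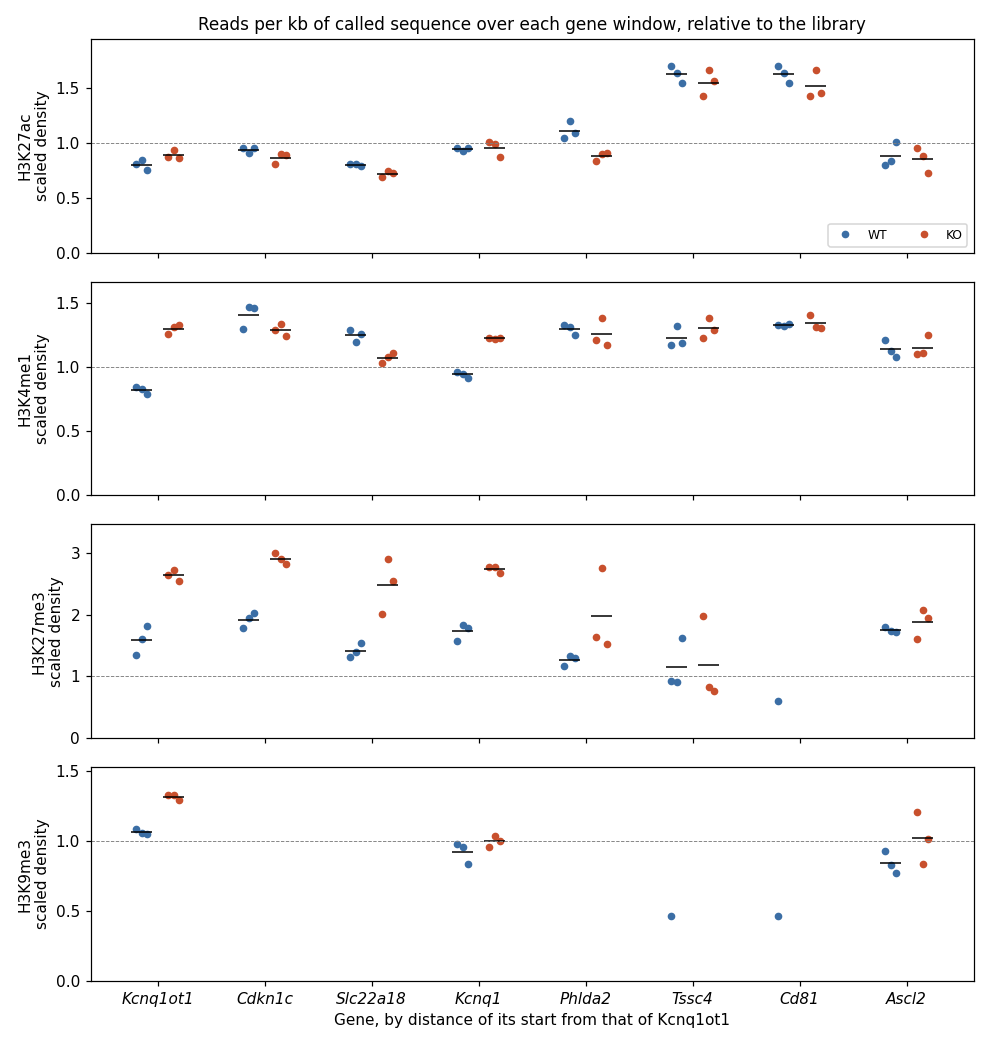
Scaled density (reads per kb of called sequence over the gene window, divided by that over all calls of the library) of 4 modifications for the 8 genes in order of distance from the Kcnq1ot1 start, with a point for each library, a bar for the mean of 3 libraries and a dashed line at 1. H3K27me3 is higher in all KO than in all WT libraries at Kcnq1ot1, Cdkn1c, Slc22a18, Kcnq1 and Phlda2, and H3K4me1 at Kcnq1ot1 and Kcnq1.

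Counted over the members, the groups did not overlap in covered sequence for 5 of 8 genes in H3K4me3 (4 higher and 1 lower in KO), 1 of 8 in H3K27ac, 2 of 8 in H3K4me1, 2 of 8 in H3K27me3 and 2 of the 5 with a call in H3K9me3. Over all genes with a call the share without overlap was 31.6%, 28.0%, 25.9%, 18.0% and 15.8%, in the same order. In the scaled density, 5 of the 7 members with H3K27me3 calls in every library were higher in KO without overlap, beside 13.9% of all such genes. The median log2 KO/WT of the 7 was 0.63, and that of all 13486 genes was 0.03. The scaled density did not overlap for 4 of 8 members in H3K27ac (1 higher, 3 lower), 3 of 8 in H3K4me1 (2 higher, 1 lower) and 1 of 3 in H3K9me3, beside 31.8%, 28.3% and 17.4% of all genes. The highest fold of H3K4me3 did not overlap for 2 of 8 members, both lower in KO, beside 33.4% of all genes. Members with shared or nested windows, such as Kcnq1 and Kcnq1ot1, are not independent, and since values of this contrast chose the genes these counts are read no further.

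Among the merged regions of the domain that were called in all 6 libraries, edgeR's quasi-likelihood test at a Benjamini-Hochberg adjusted p of 0.05 called 3 of 13 H3K27ac regions, 3 of 19 H3K4me1 regions, 3 of 4 H3K27me3 regions and 1 of 4 H3K9me3 regions. Over the genome it called 12.8%, 5.65%, 2.73% and 0.435% of the regions. The H3K9me3 region at the Kcnq1ot1 start, with no KO call, could not enter this fit. Values of this same contrast chose the domain, so its counts are set beside the genome only as a description and are no test of it.

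The lists also count input reads over each call. Relative to the input over all called sequence, the log2 KO/WT of input reads per kb over the members ranged from -0.34 to 0.01 in the H3K27ac lists, from -0.26 to 0.04 in H3K4me1, from -0.12 to 0.10 in H3K27me3 and from -0.29 to 0.45 in H3K9me3, where only 3 members had calls in both genotypes. At Kcnq1ot1 it was 0.04 in H3K4me1, 0.01 in H3K27ac, -0.06 in H3K27me3 and -0.29 in H3K9me3. In the H3K4me1 lists it was -0.26 at Cdkn1c, -0.16 at Slc22a18 and -0.22 at Phlda2, and in the H3K27ac lists -0.34 at Cdkn1c, -0.12 at Slc22a18 and -0.17 at Phlda2, so that at these 3 genes the input was lower in KO, as were the ChIP densities of H3K27ac at all 3 and of H3K4me1 at Slc22a18. The input was lower at Ascl2 too, at -0.20 in H3K4me1 and -0.18 in H3K27ac, while its scaled densities of both marks overlapped between the genotypes. In the H3K9me3 and H3K27me3 lists the Ascl2 input was instead higher in KO, at 0.45 and 0.10. The H3K9me3 calls at Ascl2 covered less in KO. Each genotype had 1 input per experiment, so the inputs carry no replicate error, and their part in the differences was not tested.

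Among 11 other genes of the region, covered sequence did not overlap for 4 of the 9 with a call in H3K4me3. The other counts were 1 of 10 in H3K27ac, 3 of 10 in H3K4me1, 3 of 9 in H3K27me3 and 0 of 10 in H3K9me3. Over all genes with a call the share was 31.6%, 28.0%, 25.9%, 18.0% and 15.8%, in the same order. H3K4me3 calls were wider in KO at Tspan32 (0 to 539 bp in WT, 891 to 1536 bp in KO), Trpm5 (1225 to 1379 bp, 1638 to 1910 bp, the calls of Tssc4), Cars (705 to 870 bp, 1123 to 1729 bp) and Nadsyn1 (324 to 844 bp, 1030 to 1241 bp). H3K27ac covered 39800 to 45600 bp of the Cars window in WT and 46600 to 47171 bp in KO. H3K4me1 covered less in KO at Tspan32 (19000 to 20200 bp, 16800 to 17400 bp) and Th (11928 to 14328 bp, 5328 to 10528 bp) and more at Dhcr7 (15800 to 19200 bp, 20400 to 22656 bp). H3K27me3 covered more in KO at Osbpl5 (67385 to 70785 bp, 71185 to 72785 bp), Tnfrsf23 (3272 to 3472 bp, 4072 to 4272 bp) and Th (43177 to 46577 bp, 47377 to 48377 bp).

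Of these 11 genes, 5 had H3K27me3 calls in every library. The scaled density of H3K27me3 was higher in KO without overlap at 4 of them, beside 13.9% of all such genes. It was 1.30 to 1.42 in WT and 1.95 to 2.26 in KO at Th, 1.40 to 1.62 and 1.68 to 1.98 at Trpm5, and 0.951 to 1.13 and 1.17 to 1.33 at Tnfrsf23. At Osbpl5 it was 1.17 ± 0.0448 in WT and 1.62 ± 0.128 in KO (SD, n = 3 and 3). In the other modifications it was without overlap at 4 genes in H3K27ac (Tspan32 and Cars higher, Osbpl5 and Th lower in KO), 4 in H3K4me1 (Tspan32 and Cars higher, Nadsyn1 and Th lower) and 3 in H3K9me3 (Tnfrsf22 and Tnfrsf23 higher, Tnfrsf26 lower). Calls in every library were present at 10, 10 and 5 of the 11 genes in these 3 modifications. Over all such genes the share without overlap was 31.8%, 28.3% and 17.4%, in the same order. The highest fold of H3K4me3 was without overlap at 3 of 8 genes, higher in KO at Cars and Tnfrsf22 and lower at Nap1l4. Over all genes the share was 33.4%.

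The start of Kcnq1ot1 was set beside those of other genes by the covered share of the promoter window in all 30 libraries. The smallest mean absolute differences, 14.9 to 16.6 percentage points, were those of Cmtm4, Adamts7, Cited4, Tmem120a and Rnf169. None of the 5 had the H3K9me3 pattern of Kcnq1ot1, which was covered by 73.6% on average in 3 of 3 WT libraries and by 0% in KO. H3K9me3 was called in 2, 2, 0, 1 and 0 of 3 WT libraries at these genes, in the order given, and in 0 of 3 KO libraries at each.

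Airn (ENSMUSG00000078247, chr17:12741311-12860136), the noncoding RNA of the Igf2r cluster, had H3K9me3 calls over 16.2%, 18.5% and 16.7% of its window in WT and 4.19%, 4.04% and 3.57% in KO, and unlike Kcnq1ot1 its H3K4me1 groups overlapped, at 32.0% to 35.2% in WT and 32.8% to 38.9% in KO. At Mest (ENSMUSG00000051855, chr6:30723547-30748465), another gene with a maternally methylated start, H3K9me3 covered 47.0%, 44.1% and 49.8% in WT and 0% in the 3 KO libraries, while H3K4me3 covered 0% in WT and 5.89%, 8.52% and 7.23% in KO.

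The lists held 21836 to 26806 H3K4me3, 44977 to 57645 H3K27ac, 70180 to 76172 H3K4me1, 41182 to 52348 H3K27me3 and 35979 to 52748 H3K9me3 calls on the main chromosomes, and for the last 4 modifications 8548342 to 35951506 ChIP reads within calls. H3K4me3 calls were more numerous in KO without overlap (21836 to 23638 in WT, 23736 to 26806 in KO), though their called sequence overlapped. H3K27ac calls were fewer in KO (51932 to 57645 in WT, 44977 to 47975 in KO). With equal numbers of top-ranked calls, the wider H3K4me3 coverage in KO was kept at Kcnq1ot1, Kcnq1 and Cd81 and lost at Tssc4. The part of the call numbers at the neighbouring genes was not tested. The called sequence of a library differed between the genotypes without overlap in H3K27ac (380 to 393 Mb in WT, 411 to 419 Mb in KO), H3K4me1 (486 to 488 Mb, 476 to 483 Mb), H3K27me3 (214 to 259 Mb, 267 to 278 Mb) and H3K9me3 (202 to 207 Mb, 172 to 186 Mb), and its part in the covered lengths at the members was not tested. The read density over all calls overlapped between the genotypes in each of the 4 modifications. It was 38.4 to 41.6 reads per kb in WT and 38.1 to 39.5 in KO for H3K27me3, and 73.4 to 74.0 and 73.0 to 73.7 for H3K4me1. The promoter windows of Pou5f1, Sox2 and Zfp42, genes of embryonic stem cells, had H3K4me3 and H3K27ac calls in all 6 libraries, Nanog had H3K27ac in all 6 and H3K4me3 in 1 WT and 3 KO libraries, and Esrrb had neither. Of 5 genes of fibroblasts, which can serve as feeder cells, Col1a1, Col1a2 and Prrx1 had no H3K4me3 call in any library, while Thy1 had it in 6 and Twist1 in 5 libraries. H3K27ac was called at Thy1 and Twist1 in all 6 libraries, at Col1a2 in 0, at Prrx1 in 2 WT and 0 KO libraries, and at Col1a1 in 3 WT and 2 KO libraries, over 4101, 5101 and 4301 bp in WT and 0, 777 and 2301 bp in KO. The part of these differences in the values of the domain was not tested. The promoter of Nfkbia, the edited gene, had H3K4me3 calls in 3 of 3 WT and 2 of 3 KO libraries and H3K27ac calls in all 6, which does not check the edit of its first exon.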

How the data were processed

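ChIP-seq lists of 30 libraries (5 modifications, 2 genotypes, 3 clones each) were read as deposited. Per the labels and methods, the authors trimmed reads with Trim Galore 0.6.6, aligned to GRCm38 (mm10) with Bowtie2 2.4.4 (the aligner of H3K27ac and H3K9me3 is not given in the methods), removed multimapped, low-quality and blacklisted reads, marked duplicates with SAMtools 1.15, discarded the Drosophila spike-in of H3K27me3, and called regions per library at a false discovery rate of 0.05 against 1 input per genotype and experiment. The broad modifications were called with epic2 (SICER 0.0.52), whose deposited columns hold read counts of ChIP and input, a p-value, a log2 fold change over input and a score. H3K4me3 was called with MACS2 2.2.7.1, whose deposited columns hold a fold enrichment (a ratio to input) and −log10 p and q. The caller's p-values, log2 fold changes and scores, deposited by the authors, served only for ranking, thresholds or not at all.

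The 8 genes and the gene lists were chosen with earlier results of these data known. Windows were the gene with 5000 bp on either side (GENCODE M21). The reads of a call were divided evenly over its length. Groups were called not overlapping where the 3 KO values all lay above or all below the 3 WT values. Regions of the 6 lists of a modification were merged where they shared at least 1 bp, and those called in all 6 were fitted with edgeR 4.0.16 (quasi-likelihood, TMM, covered length as offset, Benjamini-Hochberg, R 4.3.3). The SE of a log2 value was taken as its size divided by the square root of F. H3K4me3 lists hold no read counts and were not fitted. The number of reads sequenced per library is not known from the lists. The other genes named were a fixed list of 11 neighbours, 2 further imprinted genes and the 5 genes with the most similar promoter coverage. Alternatives were the flank, a threshold of 0.01, equal numbers of top-ranked regions, other scalings, DESeq2 1.42.0, a low-count filter, no offset, a replicate block and each library left out.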

Additional observations from a re-analysis of the deposited data

How the results depend on the processing

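Of 400 alternative values of the covered share of the 8 genes in 5 modifications, 383 moved by less than 1 SD between replicates, 17 by more and 0 changed sign among non-overlapping pairs. The counts of non-overlapping genes were 2 in H3K4me3, 0 in H3K27me3 and 0 in H3K9me3 without a flank, 3 in H3K27ac and 1 in H3K9me3 with a flank of 10 kb, and 2 in H3K27ac with equal numbers of top-ranked regions. Leaving out 1 library gave 1 to 3 in H3K27ac (3 without KO replicate 1). Kcnq1ot1 kept its direction in H3K4me3, H3K27ac and H3K4me1, and Kcnq1 in H3K4me3 and H3K4me1, in 4 of 4 alternatives, and the other non-overlapping pairs were lost at least without a flank.

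Over all merged regions, edgeR called 10216 in H3K27ac without TMM. Without the length offset it called 5905 in H3K27ac, 10339 in H3K4me1, 1918 in H3K27me3 and 2025 in H3K9me3, and in regions of like length 4758 in H3K4me1 and 451 in H3K9me3. DESeq2 called 273 in H3K9me3. Leaving out 1 library gave 1654 (without KO replicate 1) to 1807 in H3K4me1, 267 (without KO replicate 1) to 497 in H3K27me3 and 38 (without WT replicate 3) to 109 in H3K9me3. Without TMM the median log2 of all regions was -0.20 in H3K27ac, -0.10 in H3K27me3 and 0.09 in H3K9me3, and the share of calls higher in KO changed from 64.2% to 4.6% in H3K27ac, 70.7% to 56.7% in H3K4me1, 61.9% to 18.8% in H3K27me3 and 38.7% to 78% in H3K9me3. At the Kcnq1ot1 start the H3K27ac log2 KO/WT was then 0.16, beside 0.34 with TMM. In the small H3K4me1 region upstream of the start it was 0.66 with DESeq2 and 1.19 without the offset. Over the libraries left out it ranged there from 0.46 to 0.86, the highest without KO replicate 1. Apart from the offset and the scaling, which enter these values directly, the cause was not tested.

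Clones with the same number did not deviate together (r from -0.018 to 0.027), so the numbers do not pair the samples. With the replicate block, 2842, 2120, 481 and 90 regions were called in H3K27ac, H3K4me1, H3K27me3 and H3K9me3. The low-count filter removed no region. The lists give no value below the calling limit, which bounds what an absent call can show.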
